A study of Mus musculus with 14 samples.

Results

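Metallothioneins and zinc transporters were examined in whole mouse colon with and without the glucocorticoid receptor (GR) in the intestinal epithelium. The set held 8 genes: the metallothioneins Mt1 and Mt2, the zinc exporter gene Slc30a1 and its relative Slc30a10, the zinc importers Slc39a4, Slc39a8 and Slc39a14, and the zinc-sensing transcription factor Mtf1. Members were the probes whose transcript accession mapped to 1 of these genes. Of 15540 genes with a tested probe, these 8 had 15 of the 41174 probes on the array, and 14 of the 29523 tested probes. Another Mtf1 probe, A_52_P55666, was not well above background on any array and was not tested. The set was chosen by measured values of these same arrays, the difference of Mt1 between the genotypes on water, so that contrast is described for the 8 genes and not tested.

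The study profiled colonic RNA of 14 female C57BL/6 mice, aged 4 to 6 months and fed chow, on 1-colour Agilent arrays, 1 mouse per array. Flox mice, the controls, carry loxP-flanked GR alleles. GR iKO mice carry the same alleles together with a Cre recombinase driven by the Villin promoter, which is active in the intestinal epithelium and needs no induction, so that other cells of the colon keep GR. Each genotype received plain drinking water (Flox, n = 4; GR iKO, n = 4) or 2.5% dextran sulfate sodium (DSS), a chemical that damages the epithelium and brings on colitis, for 7 days (Flox, n = 3; GR iKO, n = 3). No group without loxP-flanked alleles and no group with Cre alone was analysed here. A level is the log2 signal of a probe minus that of the array's 75th percentile, and differences are on the log2 scale. The 75th percentile ran from 262 to 1003 intensity units, and 62.6% to 71.3% of the probes on each array were well above background, a flag that the scanner software sets for each spot. Nr3c1, the gene of GR, stood at 57.3% of the Flox signal in GR iKO colons on water (exact permutation p = 0.0286, two-sided, the smallest that 4 against 4 arrays allow) and at 56.1% on DSS (exact p = 0.1, the smallest for 3 against 3). Each of the 12 epithelial marker genes was well above background on at least 1 array of every group. In RNA from a whole colon, fewer cells of a type and less RNA per cell cannot be told apart.

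Metallothioneins are small cysteine-rich proteins that bind zinc and copper and buffer free metal in the cell. The transcription factor MTF-1, encoded by Mtf1, senses free zinc and binds metal response elements in the promoters of Mt1, Mt2 and Slc30a1, so these genes are known to rise together when cytosolic zinc rises. Glucocorticoids, inflammatory cytokines and oxidative stress are also known inducers of Mt1 and Mt2, which lie next to each other on mouse chromosome 8. Members of the Slc30 family move zinc out of the cytosol and members of the Slc39 family move it in.

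The promoters of the 3 genes best known as MTF-1 targets are shown because the question was whether Mt1 moved with the other zinc-responsive genes. RefSeq promoter windows of assembly GRCm38.p6, from 250 bases before to 50 bases after the annotated gene start, were found for 6 of the 8 members, and Slc39a4 and Slc39a14 were not matched. The core of the metal response element was searched as TGCACNC and TGCGCNC on both strands, and capitals mark each match, read 5′ to 3′ on the strand of the gene. The windows lie at chr8:94178839-94179138 for Mt1, chr8:94172368-94172667 for Mt2 and chr1:191906531-191906830 for Slc30a1, all on the plus strand.
Mt1: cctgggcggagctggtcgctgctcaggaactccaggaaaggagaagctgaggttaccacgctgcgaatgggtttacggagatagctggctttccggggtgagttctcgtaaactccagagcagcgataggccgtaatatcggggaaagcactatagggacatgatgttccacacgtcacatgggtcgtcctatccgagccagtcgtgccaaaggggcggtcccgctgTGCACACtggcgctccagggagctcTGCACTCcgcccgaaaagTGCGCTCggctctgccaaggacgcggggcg
Mt2: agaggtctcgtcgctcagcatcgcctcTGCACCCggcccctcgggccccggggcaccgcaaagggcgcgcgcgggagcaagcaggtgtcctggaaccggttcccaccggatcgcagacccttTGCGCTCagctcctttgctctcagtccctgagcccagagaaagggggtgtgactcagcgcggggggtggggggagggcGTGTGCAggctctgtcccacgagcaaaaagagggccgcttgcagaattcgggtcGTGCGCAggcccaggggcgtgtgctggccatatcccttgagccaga
Slc30a1: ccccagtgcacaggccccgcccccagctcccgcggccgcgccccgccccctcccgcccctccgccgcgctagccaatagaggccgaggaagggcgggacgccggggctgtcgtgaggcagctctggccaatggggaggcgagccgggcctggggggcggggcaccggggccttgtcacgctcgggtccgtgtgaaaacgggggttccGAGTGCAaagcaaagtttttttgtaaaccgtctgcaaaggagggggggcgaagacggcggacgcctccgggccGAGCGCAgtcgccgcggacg

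The Mt1 window held 3 matches, which began at -23, 2 and 20 from the start base. The Mt2 window held 4, at -223, -128, -50 and 4, and the Slc30a1 window held 2, at -43 and 30. Of all 32851 promoter windows, 25.7% held at least 1 match, 7.11% at least 2, 1.97% at least 3 and 0.517% at least 4. The window of Slc30a10 held 3 matches, a pair of which overlapped on opposite strands, the 2 windows of Slc39a8 held 0 and 1, and the Mtf1 window held 0. A match is a stretch of letters and not a measured binding site. Positions are counted from the annotated gene start, and which start the colon uses was not examined. Elements outside a window are not counted, so the numbers of matches do not rank the genes.

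On water, Mt1 was higher in every GR iKO colon than in any Flox colon, and the other 7 genes were at overlapping levels in the 2 genotypes. The brighter Mt1 probe, A_51_P294979, stood at 2.62, 3.37, 3.30 and 3.29 in Flox replicates 1 to 4 and at 5.90, 5.92, 6.01 and 6.31 in GR iKO replicates 1 to 4. The means were 3.15 ± 0.35 (SD, n = 4) and 6.03 ± 0.19 (SD, n = 4), a difference of 2.89 (SE 0.23) or 7.40-fold. Flox replicate 1 was the lowest of its group, and the lowest GR iKO level lay above the highest Flox level by more than the range of either group. All GR iKO mice and no Flox mouse carry the Cre transgene, whose sequence was not used here, so signal from the Mt1 gene and any signal from transgene sequence that these probes could detect cannot be told apart in any comparison of the genotypes.

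The second Mt1 probe, A_52_P423810, gave the same order. It stood at -3.11, -2.84, -2.26 and -2.11 in Flox and at 0.84, 1.23, 1.26 and 1.99 in GR iKO colons, with a difference of 3.91 (SE 0.56). Over the 14 arrays the probes for Mt1 had a Pearson r of 0.91, given as a description. Each of the 4 slides carried both genotypes on water, and within a slide the difference of the brighter probe was 3.39, 2.54, 2.60 and 3.02. Because Mt1 was chosen for this contrast, no p is given for it. By the fit's own criterion, an adjusted p under 0.05, 1 of the 8 genes and 0.00339% of all tested probes were called on water, and nothing is read from that count.

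**Figure D1:**
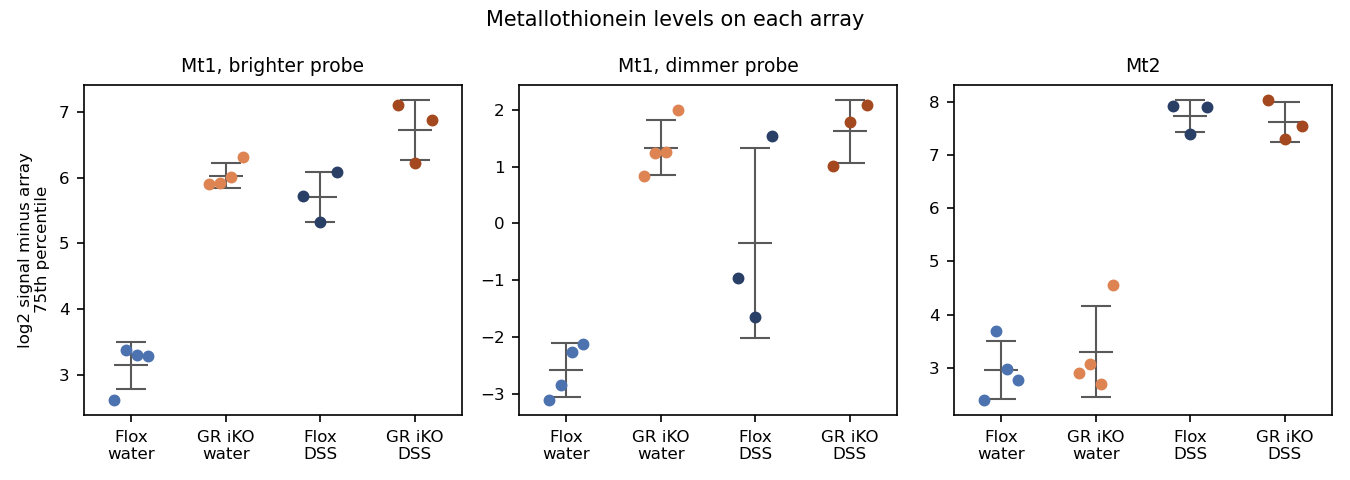
Levels of the 2 Mt1 probes and of Mt2 on each of the 14 arrays (log2 processed signal minus the 75th percentile of the array), by group; each panel has its own scale, points are single mice, and bars show the mean and SD. On water the GR iKO points of both Mt1 panels lie above all Flox points, from 5.90 against 3.37 or lower for the brighter probe, whereas the Mt2 points of the genotypes overlap, and on DSS every Mt2 point is at 7.30 or above.

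Mt2, the immediate neighbour of Mt1 and normally induced with it, did not show this separation. Its levels on water were 2.40, 3.69, 2.97 and 2.77 in Flox and 2.90, 3.07, 2.69 and 4.56 in GR iKO colons, with means of 2.96 ± 0.55 (SD, n = 4) and 3.31 ± 0.85 (SD, n = 4). The difference was 0.35 (SE 0.39), and GR iKO replicate 4 alone lay above the Flox range. Within slides it was 0.29, -0.62, -0.07 and 1.80, so its sign was not the same on every slide.

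The other zinc genes also overlapped between genotypes on water. Slc30a1, the main zinc exporter of the plasma membrane, ranged from 0.31 to 0.54 in Flox and from 0.24 to 0.83 in GR iKO colons, with a difference of 0.16 (SE 0.21). Slc39a4, which takes up dietary zinc at the apical surface of the gut, had a difference of -0.04 (SE 0.20), and Slc39a14, an importer of zinc, iron and manganese, one of -0.09 (SE 0.22). Slc39a8, an importer of zinc and manganese, differed by 0.09 (SE 0.30) and Mtf1 by 0.05 (SE 0.14). Slc30a10, better known as a manganese exporter, had the largest difference apart from Mt1, at -0.79 (SE 0.79), with GR iKO replicate 1 at -2.04 and the other 7 water arrays between -0.66 and 1.02. The median difference of the 8 genes was 0.07, beside -0.0057 over all tested probes.

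**Figure D2:**
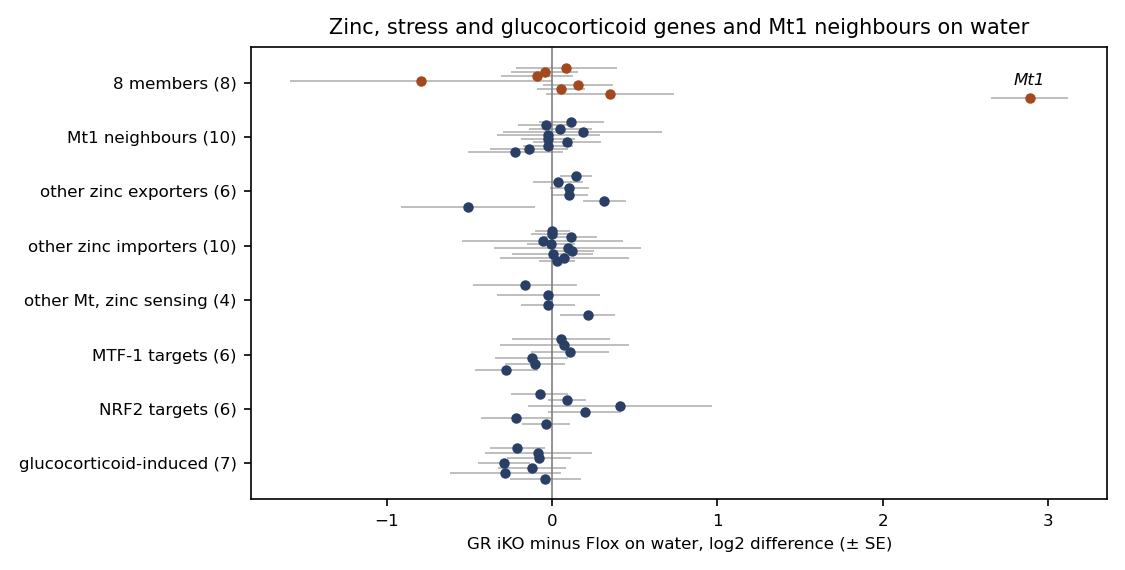
Genotype difference on water, GR iKO minus Flox colons (log2, with its SE) for the 8 genes, the 10 chromosome neighbours of Mt1 and 6 lists of zinc, stress and glucocorticoid genes; each point is 1 gene by its brightest probe, and the number in brackets is the number of genes tested. Mt1 lies at 2.89, and every other point lies between -0.79 and 0.41.

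Further genes of zinc handling were taken from lists chosen with earlier results of these arrays known. On water, limma called 0 of their 38 genes tested, with 1 gene at an unadjusted p under 0.05, and the differences ran from -0.51 to 0.41. Among all tested probes, 0.942% had an unadjusted p under 0.05. The spread in this fit was shared with the DSS arrays, which varied more (median variance ratio 3.12), so it can overstate the SE on water. A fit of the water arrays alone gave 898 of 29523 tested probes at that p, against 278 here. That fit also called 0 genes of each list. The counts on water therefore do not show that the genotypes had equal levels. The lists comprised 6 other zinc exporters (median difference 0.10), 10 other importers (0.016), Mt3, Mt4 and 2 genes of zinc sensing (-0.024), 6 MTF-1 targets such as Gclc, an enzyme of glutathione synthesis (-0.023), and 6 targets of the oxidative stress factor NRF2 such as Hmox1, which degrades heme (0.028). The importer Slc39a10 stood on both the importer and the MTF-1 target list. The MTF-1 targets were listed without the direction in which MTF-1 moves each, so their median is not a readout of its activity. Their differences ran from -0.28 to 0.11. The remaining list, 7 tested glucocorticoid-induced genes, among them Fkbp5 and Per1, had differences from -0.29 to -0.04 on water, all below 0, with a median of -0.12 and 0 called.

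The 5 nearest genes with a tested probe on each side of Mt1, leaving out Mt2, were also compared, in the order of the gene table. They were Nudt21, Ogfod1, Bbs2, Mt4 and Mt3 before it and Nup93, Herpud1, 9330175E14Rik, Nlrc5 and Cpne2 after it. On water their differences lay between -0.22 and 0.19, 4 of the 10 above 0, and limma called 0 with 0 at an unadjusted p under 0.05. The limit from the spread shared with the DSS arrays holds for these counts too. Mt3 and Mt4, the other metallothionein genes of this cluster, differed by -0.02 (SE 0.16) and -0.02 (SE 0.31).

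Mt2 rose with DSS in both genotypes, and Mt1 rose in Flox colons and, by its brighter probe, in GR iKO colons. Mt2 stood at 7.93, 7.39 and 7.90 in Flox DSS replicates 1, 2 and 4 and at 8.04, 7.30 and 7.54 in GR iKO DSS replicates 1, 3 and 4. All 6 DSS arrays lay above the 8 water arrays. The response was 4.78 (SE 0.42) or 27.5-fold in Flox (adjusted p = 3.85e-06) and 4.32 (SE 0.42) or 19.95-fold in GR iKO colons (adjusted p = 1.26e-05). The difference between the responses, tested as an interaction, was -0.46 (SE 0.59, adjusted p = 0.721).

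Mt1 on DSS stood at 5.73, 5.33 and 6.08 in Flox and at 7.10, 6.22 and 6.87 in GR iKO colons. It rose by 2.57 (SE 0.25) or 5.92-fold in Flox colons (adjusted p = 7.96e-06), from a water level that entered the choice of the gene, but under spike-in scaling its response was 0.18 (adjusted p = 0.678). In GR iKO colons it rose by 0.70 (SE 0.25) or 1.62-fold (adjusted p = 0.0391), with overlapping groups. Of 26 alternatives, 10 lost this call and 1, spike-in scaling, turned the sign (-0.28). Among the 10 were separate variances for water and DSS arrays (adjusted p = 0.077). The call was also lost without any 1 of 6 arrays (Flox DSS replicate 1, GR iKO water replicates 1, 2 and 3, or GR iKO DSS replicates 1 and 4, with values from 0.51 to 0.70). The interaction for Mt1 was -1.87 (SE 0.35, adjusted p = 0.0596), with 0 of the 8 genes called and 2 at an unadjusted p under 0.05, beside 0.112% of probes called and 19.2% at that unadjusted p. It was called without Flox DSS replicate 4 (-1.68), GR iKO DSS replicate 3 (-1.61) or GR iKO DSS replicate 4 (-1.94), and with quantile normalization (-1.79). The Mt1 interaction shares its water arrays with the contrast that chose the gene. Any transgene signal that the Mt1 probes could detect would enter both GR iKO groups. The limit from the transgene therefore holds for the GR iKO response and the interaction of Mt1 too, by either probe.

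The second Mt1 probe was more variable on DSS, and the water arrays of its responses too had entered the choice of the gene. It stood at -0.95, -1.64 and 1.54 in Flox and at 1.00, 1.78 and 2.08 in GR iKO colons, so that Flox DSS replicate 4 lay within the GR iKO range. It rose by 2.23 (SE 0.61) in Flox colons (adjusted p = 0.00825), and its response in GR iKO colons was 0.29 (SE 0.61, adjusted p = 0.723). Between genotypes on DSS it differed by 1.97 (SE 0.65, adjusted p = 0.063), and without Flox DSS replicate 4 this was called, at 2.92.

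Between genotypes on DSS, a contrast that the choice on water values did not use although its results were known by then, Mt1 and Slc39a4 were higher in GR iKO colons and the other 6 genes were not called. The difference of Mt1 was 1.02 (SE 0.27) or 2.03-fold (adjusted p = 0.0298), and all 3 GR iKO levels lay above the 3 Flox levels, with the same limit from the transgene as on water. Slc39a4 stood at 5.86, 5.40 and 5.93 in Flox and at 7.21, 6.35 and 6.60 in GR iKO colons, again without overlap, with a difference of 0.99 (SE 0.23) or 1.99-fold (adjusted p = 0.0205). These 2 of 8 genes compare with 13.2% of all tested probes called, 6.44% higher and 6.78% lower.

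Both calls rest on the spread of all 14 arrays. DSS arrays varied more than water arrays, with a median variance ratio of 3.12, and a fit of the 6 DSS arrays alone gave adjusted p values of 0.233 for Mt1 and 0.228 for Slc39a4 and called 0 of all probes. With separate variances they were 0.181 and 0.142, with 0.0203% of probes called. With the slide as a block the adjusted p values were 0.056 and 0.0754. Within the 2 slides that held DSS arrays of both genotypes, the differences were 0.49 and 0.79 for Mt1 and 0.49 and 0.67 for Slc39a4. The slide of GR iKO DSS replicate 1, the highest array for both genes, held no Flox DSS array. The Mt1 call was lost without Flox DSS replicate 1 or 2 or GR iKO DSS replicate 1 or 4 (values 0.83 to 1.03), and the Slc39a4 call without Flox DSS replicate 2 (0.82) or GR iKO DSS replicate 1 (0.75).

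Markers of other cells moved between genotypes on DSS as well. All 8 smooth muscle genes were lower in GR iKO DSS colons by the same fit, with summed levels of 10.1 to 10.9 in Flox and 8.49 to 9.71 in GR iKO colons, and 3 of 8 neutrophil genes were higher, with summed levels of 4.60 to 6.07 and 6.30 to 8.14. Epithelial genes, the cells in which Slc39a4 is known to act, had summed levels of 10.1 to 10.8 and 10.5 to 11.0, with 3 of 12 called higher. Of the other lists, 1 of 12 macrophage, 2 of 10 colonocyte and 1 of 8 goblet cell genes were called higher, and 1 of 8 fibroblast genes lower. Macrophage genes had summed levels of 5.02 to 5.85 in Flox and 5.52 to 6.41 in GR iKO colons. These counts stand beside 6.44% of all tested probes called higher and 6.78% lower. None of these lists had a gene called in the DSS arrays alone. The part of these cells in the Mt1 and Slc39a4 differences was not tested. On water the smooth muscle, neutrophil and epithelial lists had 0 genes called, with the limit from the shared spread given above. Their summed levels there were 8.80 to 9.46 and 8.71 to 9.44 for smooth muscle, -2.54 to -0.98 and -2.11 to -0.49 for neutrophils, and 10.4 to 10.6 in both genotypes for epithelium.

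Slc39a4 fell with DSS in Flox colons and was not called in GR iKO colons, and the difference between those responses was not called. Its water levels were 6.79, 6.32, 6.21 and 6.21 in Flox and 6.21, 6.60, 6.28 and 6.26 in GR iKO colons. The response was -0.65 (SE 0.22, adjusted p = 0.025) in Flox and 0.38 (SE 0.22, adjusted p = 0.177) in GR iKO colons, and the interaction was 1.04 (SE 0.31, adjusted p = 0.112). Without GR iKO DSS replicate 3 the interaction was called, at 1.22 (adjusted p = 0.0411). The Flox call was lost without Flox water replicate 1 (-0.52) or Flox DSS replicate 2 (-0.48) and with the slide as a block (adjusted p = 0.0634).

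**Figure D3:**
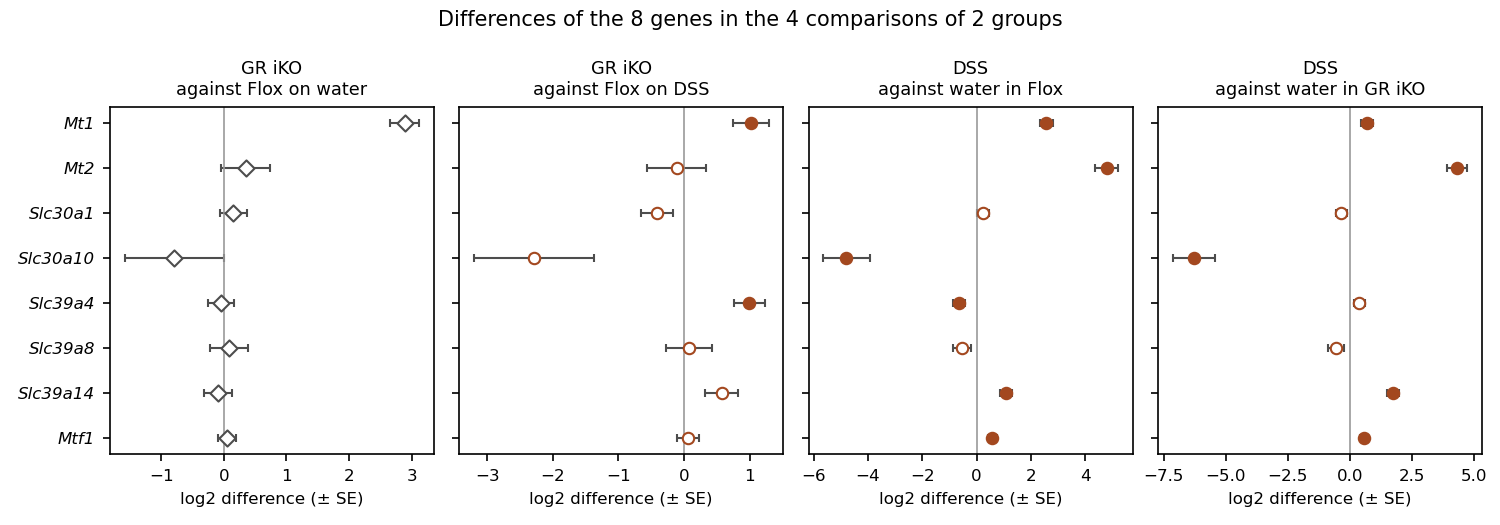
Differences of the 8 genes, by brightest probe, in the 4 comparisons of 2 groups (log2, bars show the SE); each panel has its own scale. Diamonds mark the contrast used to choose the genes, which is not tested, and filled circles mark an adjusted p under 0.05, which holds for 2 genes between genotypes on DSS, 6 genes with DSS in Flox and 5 with DSS in GR iKO colons.

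The counts of members called with DSS are given beside the share of all probes, and with 8 genes they are not read as particular to the set. In Flox colons 6 of 8 genes were called, Mt1, Mt2, Slc39a14 and Mtf1 higher and Slc30a10 and Slc39a4 lower, beside 52.6% of all tested probes, 24.4% higher and 28.2% lower. In GR iKO colons 5 were called, the same 4 higher and Slc30a10 lower, beside 44.5%, 22% higher and 22.5% lower, and 3 were called with the mean over the probes of a gene. The median of the 8 genes was 0.40 in Flox and 0.48 in GR iKO colons, against -0.087 and -0.0225 over all probes. The 2 comparisons use different arrays. These directions are relative to the 75th percentile, and scaling to the spike-in probes moved the median of all probes by -2.39 in Flox and -0.97 in GR iKO colons and turned the sign of Slc39a14 in Flox, of Mtf1 in both genotypes and of Mt1 in GR iKO colons.

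Slc30a10 fell further than any other member. On water it stood at 0.87, -0.66, -0.44 and 1.02 in Flox and at -2.04, -0.46, -0.13 and 0.25 in GR iKO colons. On DSS it stood at -6.01, -4.58 and -3.20 in Flox and at -7.99, -4.90 and -7.76 in GR iKO colons, of which 2 Flox arrays and 1 GR iKO array were well above background. The response was -4.79 (SE 0.85, adjusted p = 0.000556) in Flox and -6.29 (SE 0.85, adjusted p = 0.000123) in GR iKO colons. No fold is given, since some DSS arrays were at background, and with normexp background correction the responses were -2.77 and -2.71, also called.

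The second Slc30a10 probe, A_51_P173445, fell by 3.42 (SE 0.79) and 5.05 (SE 0.79), both called, and the probes had a Pearson r of 0.99 over the 14 arrays. Between genotypes on DSS the first probe differed by -2.29 (SE 0.91, adjusted p = 0.115), with 1.11 within one slide and -4.56 within the other. Without GR iKO DSS replicate 3, the array with the highest level in its group, the fit called it, but both remaining arrays of that group were not well above background, so no size is given.

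Slc39a14 rose with DSS. Its probe A_51_P282983 stood at -1.41, -1.54, -1.55 and -1.56 in Flox and -1.39, -1.94, -1.44 and -1.66 in GR iKO colons on water, and at -0.10, -0.63 and -0.57 in Flox and 0.80, -0.28 and -0.10 in GR iKO colons on DSS. The DSS arrays lay above all water arrays. The rise was 1.08 (SE 0.24) or 2.11-fold in Flox (adjusted p = 0.00215) and 1.75 (SE 0.24) or 3.35-fold in GR iKO colons (adjusted p = 0.000118), and a second probe gave 1.02 and 1.75. The genotypes differed by 0.57 on DSS (SE 0.25, adjusted p = 0.149).

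**Figure D4:**
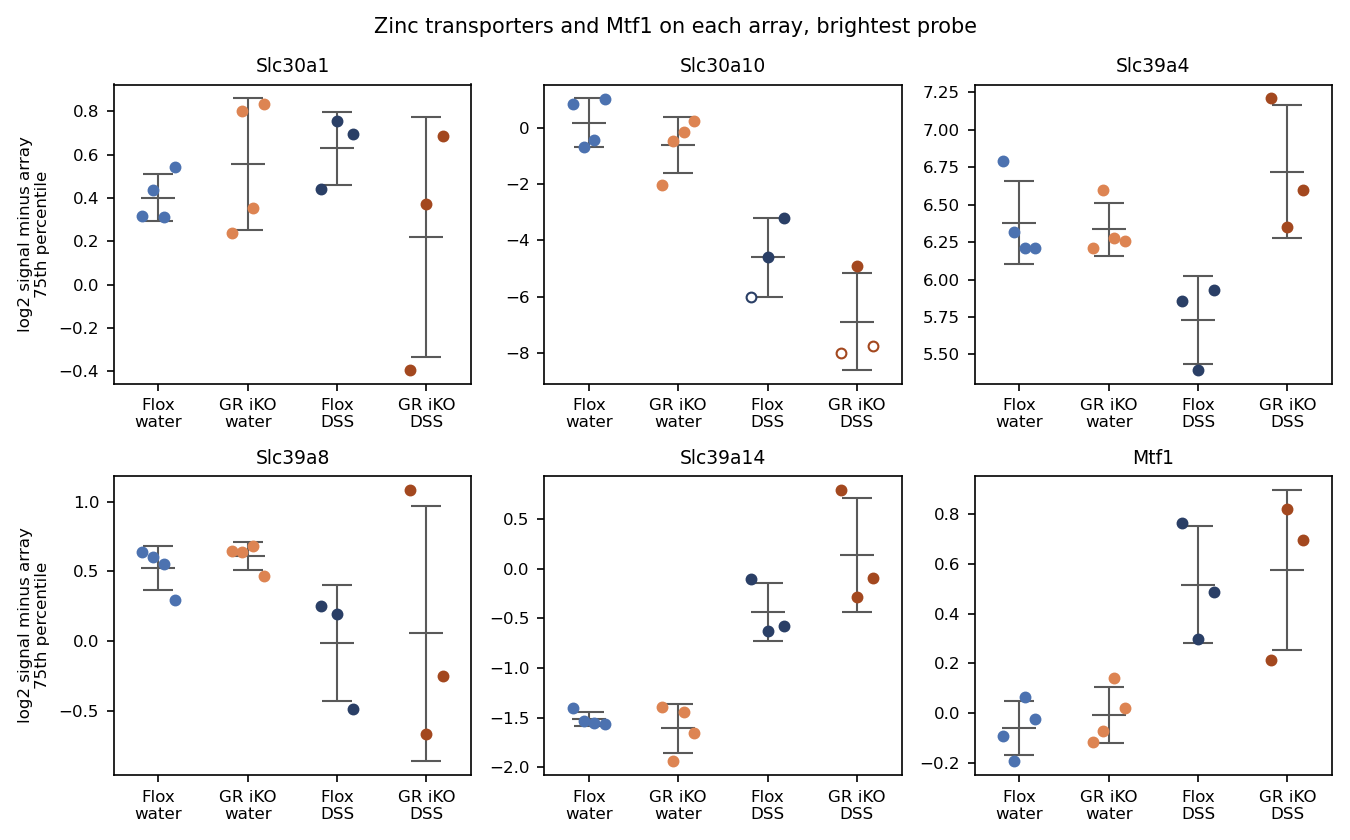
Levels of the zinc transporters and Mtf1 on each array (log2 processed signal minus the 75th percentile of the array), by group and brightest probe; each panel has its own scale, points are single mice, open points were not well above background, and bars show the mean and SD. Slc30a10 drops from between -2.04 and 1.02 on water to -3.20 or below on DSS, Slc39a14 rises in both genotypes, and the Slc39a4 points of the genotypes separate on DSS.

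The probes for Mtf1 did not move together. The brightest, A_52_P467266, ranged from -0.19 to 0.06 in Flox and from -0.12 to 0.14 in GR iKO colons on water, and from 0.30 to 0.76 and 0.21 to 0.82 on DSS. It rose by 0.57 (SE 0.16, adjusted p = 0.00847) in Flox and by 0.58 (SE 0.16, adjusted p = 0.00959) in GR iKO colons. Probe A_52_P236072 fell by 0.66 (SE 0.24, adjusted p = 0.0393) in Flox colons and had a response of 0.01 (SE 0.24, adjusted p = 0.978) in GR iKO colons, and the probes had a Pearson r of -0.23 over the 14 arrays. The call of A_52_P236072 was lost without any 1 of the 4 Flox water arrays, Flox DSS replicate 1 or 2, or GR iKO water replicate 2 (values -0.70 to -0.48). The direction of Mtf1 with DSS therefore depends on the probe.

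Slc30a1 and Slc39a8 were not called in any comparison by either probe. Slc30a1 by its brighter probe ranged from 0.44 to 0.75 in Flox DSS and from -0.39 to 0.68 in GR iKO DSS colons, and Slc39a8 ranged from -0.49 to 0.25 and from -0.67 to 1.09. Of the 3 genes whose promoters are shown, Mt2 rose with DSS in both genotypes by its probe, Mt1 rose by both probes in Flox colons and by 1 of 2 in GR iKO colons, and the differences of the Slc30a1 probes with DSS lay between -0.34 and 0.23. Without GR iKO DSS replicate 1, the array at 1.09, Slc39a8 was called lower with DSS, with a response of -0.54 in Flox colons (adjusted p = 0.0259) and one of -1.07 in GR iKO colons (adjusted p = 0.0018).

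Of the other zinc transporters, 4 of 6 exporters and 5 of 10 importers were called with DSS in Flox colons, and 4 and 4 in GR iKO colons, beside 52.6% and 44.5% of all probes. Slc30a2, a vesicular exporter, rose most, at least 9.26-fold in Flox (adjusted p = 3.41e-05) and at least 4.72-fold in GR iKO colons (adjusted p = 0.000182), while none of its water arrays was well above background. Each bound sets the DSS mean against the higher, on each water array, of the probe's own signal and the lowest signal well above background. Slc39a6, an importer, rose by 1.89 (SE 0.17) and 1.36 (SE 0.17). Slc39a1 rose by 0.52 and 0.69 (SE 0.12 each), and Slc39a13 rose in Flox colons, by 1.02 (SE 0.14). Slc39a5 fell by 1.98 (SE 0.53) in GR iKO colons, and its response of -1.26 (SE 0.53) in Flox colons was not called. Slc39a11 fell by 1.37 (SE 0.26) and 0.95 (SE 0.26), and the exporters Slc30a6 and Slc30a9, of the secretory pathway and of mitochondria, fell by 0.38 to 0.66. Slc30a5 and Slc39a9 fell in Flox colons, by 0.39 and 0.55, and Slc30a4 in GR iKO colons, by 0.38.

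Genes of metal and oxidative stress responses were mixed on DSS. Among 6 MTF-1 targets, Ndrg1 and Pgf rose in both genotypes, by 0.97 (SE 0.20) and 1.74 (SE 0.24) in Flox and by 1.09 (SE 0.20) and 1.41 (SE 0.24) in GR iKO colons, and Gclc rose in GR iKO colons, by 0.78 (SE 0.21). Among 6 NRF2 targets, 2 were called higher and 2 lower in Flox colons, and 4 higher and 1 lower in GR iKO colons. Of all tested probes, 52.6% and 44.5% were called. Hmox1 rose by 2.26 (SE 0.23) in Flox and 3.13 (SE 0.23) in GR iKO colons, and Srxn1 by 0.64 (SE 0.12) and 0.81 (SE 0.12). Txnrd1 and Slc7a11 rose in GR iKO colons, by 1.24 (SE 0.19) and 2.59 (SE 0.60). Nqo1, a quinone reductase, fell by 1.70 (SE 0.24) and 1.88 (SE 0.24), and Gclm fell in Flox colons, by 0.67 (SE 0.16). Of the glucocorticoid-induced genes, 4 of 7 rose with DSS in each genotype, beside 24.4% and 22% of all probes called higher, Fkbp5 by 1.54 (SE 0.36) in Flox and 1.10 (SE 0.36) in GR iKO colons and Pdk4, a regulator of pyruvate use, by 1.92 (SE 0.17) and 2.13 (SE 0.17).

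Between genotypes on DSS, 5 of the 38 listed genes were called, beside 13.2% of probes. Slc7a11, the cystine importer, was higher in GR iKO colons by 3.67 (SE 0.64, adjusted p = 0.00853), with 1 of 3 Flox DSS arrays well above background. Higher too were Txnrd1, a thioredoxin reductase, by 0.85 (SE 0.20, adjusted p = 0.0198), and Gpr39, a receptor that senses extracellular zinc, by 1.03 (SE 0.19, adjusted p = 0.00957), with 2 of 3 Flox DSS arrays well above background. The importer Slc39a9 was higher by 0.43 (SE 0.12) and Slc39a13 lower by 0.54 (SE 0.15). As for Mt1 and Slc39a4, 0 of these genes were called in the DSS arrays alone. Of the chromosome neighbours of Mt1, 0 of 10 were called between genotypes on DSS, with 0 at an unadjusted p under 0.05. Nlrc5 and Cpne2 rose with DSS in both genotypes. In Flox colons Nlrc5 was well above background on none of the water arrays and on 2 of 3 DSS arrays, so no fold is given.

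Across the 14 arrays, the gene whose levels were most like those of Mt1 among 15456 genes was Shc3, which encodes an adaptor protein, with a Pearson r of 0.93. Its group means were -5.26 in Flox and -4.11 in GR iKO colons on water and -3.82 and -3.62 on DSS, and it was well above background on 3 of 4 Flox water arrays and on all others. The next 4 genes, Klhl20, Trappc2l, Cldn11 and Creb3, had r between 0.79 and 0.81, and Cldn11 was not well above background on any of the Flox water arrays. Mt2 was matched more closely, by Tnfrsf1a, a receptor for TNF, at 0.98, and by Selp, Ehbp1l1, Slc10a6 and Adcyap1 at 0.97 to 0.98. Slc30a10 was most like Wdr63, at 0.98, which was not well above background on any DSS array, then Slc16a11, Stim1, Zfp707 and Ppargc1a. Mt1 and Mt2 had an r of 0.62 with each other. These correlations share arrays, scaling and the DSS contrast, and are descriptions without a test.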

How the data were processed

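Colonic RNA of 14 mice (500 ng each, per the labels) was measured on 14 arrays. Spot intensities were read by the authors using Agilent Feature Extraction 12.0.0.7, and the deposited scanner intensity is background-subtracted and detrended within an array, with no scaling between arrays. The deposited value table holds log2 values of the same arrays, and its normalization is not given in the sources used here. The submitters' processing notes also name Partek 6.6.

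Control and outlier spots were left out, and spots of a probe were averaged (41174 probes). For each array, the log2 of its 75th percentile was subtracted from the log2 processed intensity. Probes well above background on at least 3 of 14 arrays (29523) entered a fit of group means in limma 3.58.1 (lmFit, then eBayes) in R 4.3.3 over all 14 arrays. P values were two-sided and Benjamini-Hochberg adjusted over all tested probes, and a probe was called under 0.05. Symbols came from RefSeq accessions matched without versions to a GRCm38.p6 gene table (28223 of the 29245 probes with an accession). The array grid was drawn on mm9, so no gene coordinates are given apart from the RefSeq promoter windows. A gene was represented by its brightest probe on average. Probe sequences were not used here, so cross-hybridization between metallothionein genes was not examined.

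Groups and replicate numbers came from the sample labels. That replicates are separate mice follows from the labels, and the number of arrays limits the precision. The slide was read from the file headers, and all 4 slides held several groups. The members and gene lists were chosen with earlier results of these data known. Named genes were all 8 members with all their probes, from each list at most the 4 largest called changes in each direction, and the 5 genes with the highest Pearson r to Mt1, Mt2 and Slc30a10. Alternatives were normexp background correction (offset 50, on the median signal, since the files used hold no mean signal), quantile normalization, the deposited value table, spike-in scaling, other filters, slide and replicate blocks, other fits of the spread, the mean over probes, and leaving out each array. The fit was tested on simulated data.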

Additional observations from a re-analysis of the deposited data

Results flagged for a closer look

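Within the groups of 4 water arrays, 3 of 28 groups of values of the member probes held 1 array whose gap to the others passed Dixon's critical value for 4 samples; chance alone gives about 1 in 20. Flox water replicate 1 was low for Mt1 (probe A_51_P294979), at 2.62 against 3.29 to 3.37 in the other 3. Without that array the Mt1 difference on water was 2.71. GR iKO water replicate 2 was high for Slc39a4, at 6.60 against 6.21 to 6.28 in the others, and Flox water replicate 1 was high for Slc39a14 (probe A_51_P282983), at -1.41 against -1.56 to -1.54. The groups of 3 DSS arrays were not examined this way.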

How the results depend on the processing

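The Mt1 difference on water kept its sign under all 26 alternatives and ranged from 2.71 to 3.40, the latter for the mean over both probes; without 1 array at a time it was 2.71 to 2.96. For that contrast 0 listed zinc, stress and glucocorticoid genes and 0 neighbours of Mt1 were called under every alternative. Spike-in scaling changed the most values, 25 of 53 compared, and moved the median of all probes by -0.15 and 1.26 between genotypes on water and DSS and by 1.41 in the interaction. Under it the response of Mt1 was 0.18 in Flox colons, no longer called, and -0.28 in GR iKO colons, those of its second probe -0.16 in Flox and -0.68 in GR iKO colons, Mt2 between genotypes on DSS 1.14 and in the interaction 0.95, Slc39a4 in GR iKO colons -0.59, the probes of Slc39a14 in Flox colons -1.31 and -1.37, Mtf1 -1.81 in Flox and -0.39 in GR iKO colons, and Nr3c1 on DSS 0.42. It called 5 members, 27 listed genes and 9 neighbours between genotypes on DSS, 33 listed genes and 9 neighbours with DSS in Flox, 6 neighbours with DSS in GR iKO colons, and 3 members and 25 listed genes in the interaction. The cause was not tested.

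Mt2 between genotypes on DSS, near 0, was 0.078 with quantile normalization, 0.083 with the deposited value table and -0.32 to 0.050 without 1 array, and Mtf1 in Flox colons was -0.041 as the mean over its probes, which disagree. Members called between genotypes on DSS numbered 2, and 0 with the slide as a block, in the fit of the DSS arrays alone and with separate variances. The listed genes called there numbered 5, against 3 with normexp, with no filter and with the slide as a block and 0 in the last 2 fits. The mean over probes called 3 members with DSS in GR iKO colons instead of 5. In the interaction, 1 member (Mt1) was called with quantile normalization, the deposited value table, the stricter filter and array quality weights, and 3 listed genes with those weights. Neighbours called with DSS in Flox numbered 5 with normexp and 4 with array quality weights, against 2.

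Leaving out 1 array gave 0 to 3 members and 2 to 9 listed genes between genotypes on DSS, 0 to 2 members and 0 to 3 listed genes in the interaction, and 0 to 1 neighbours between genotypes on DSS and 2 to 4 with DSS in either genotype; these fits assume that groups share 1 variance. Of 32 member values given by range, 17 were counted as changing sign and 16 as called with the sign kept, under at least 1 alternative. Calls with a turned sign were not counted. For genotype differences on water, neither sign changes nor calls were counted.

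Replicate numbers did not pair the samples: deviations from the group means of same-numbered arrays correlated at 0.13, 0.072, -0.080 and 0.31 on water and at 0.18 and -0.034 on DSS. With the replicate block, 1 member was called between genotypes on DSS, and Mt2 there was 0.021 and Mt1 1.03.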
